A study of Mus musculus with 3 samples.

Results

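Connexins and pannexins are the proteins of gap junctions and of the related large channels of the cell membrane. In all, 9 genes of these families, taken by name, were described here in endothelial cells of the mouse glomerulus. They were Gja1, Gja3, Gja4, Gja5, Gjb1, Gjb2, Gjc1, Panx1 and Panx2, and each was measured by a single probe set, the group of oligonucleotides that reports one transcript on the array. They were found by exact symbol among the probe sets that name a single gene, and so made up 9 of the 19938 genes and 9 of the 21789 such probe sets. The cells were sorted by their green fluorescence from sieved, dissociated glomeruli of adult Tie2-GFP mice, which carry Tg(TIE2GFP)287Sato on a mixed background that was mostly CD-1. All cells thus carried the transgene, in which the Tie2 (Tek) promoter drives GFP, and sieved glomeruli can keep stretches of the arterioles that join them. Each of 3 arrays (Affymetrix Mouse Gene 1.0 ST), numbered replicates 1, 3 and 5, received the amplified RNA of 1 adult kidney of unstated sex. The arrays form 1 group with no treatment and no control, so the comparisons made are of each gene with a fixed level and of the arrays with each other.

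Connexin subunits form a ring, the hemichannel, and hemichannels of neighbouring cells dock to make a channel through which ions and small molecules pass. In the vessel wall such channels carry changes of membrane potential along the endothelium and let a dilation that starts at one point spread upstream. Connexins 37, 40 and 43 are the classical connexins of endothelium, and in the kidney connexin 40 (Gja5) is also needed in renin cells for the control of renin release by pressure. Gja4 and Gja5 are best known from arterial and arteriolar endothelium. Pannexins resemble connexins in shape but act mainly as single-membrane channels, and PANX1 is a well-known outlet for ATP.

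Values are the deposited log2 signals per probe set, with the value on the linear scale given where it helps. The brightness of a probe set also depends on its oligonucleotides, so the genes were not ranked by level, and a comparison with other probe sets, the background included, describes signal and not abundance. Each gene was tested against a level of 100 (6.64 on the log2 scale), the number the study used as an expression filter. It was also tested against a background of 4.85 on the log2 scale (28.9 linear), the level under which 95% of 1035 olfactory receptor probe sets lay. Both were two-sided limma tests on the mean of 3 arrays, adjusted by Benjamini-Hochberg across all 21789 probe sets, and a gene was called above or below a level at an adjusted p under 0.05. The p-values rest on the spread among these 3 arrays, pooled with a prior from other probe sets. For Gja3, Gjb1, Gjb2 and Panx2, whose 3 values are identical, the gene's own spread is 0 and the error comes from that prior (SD 0.288) alone.

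The arrays had medians of 4.79 to 4.85 and values between 1.39 and 14.40 over all of their probe sets. The background of 4.85 thus lay at about the middle of an array, and a call above it need not mean detection. Pairwise Pearson correlations were 0.975 to 0.985 across probe sets that name a gene. Of these probe sets 54.1% had the same value on all 3 arrays, within 1e-05. All 8 endothelial markers (Tek, Pecam1, Cdh5, Kdr, Erg, Egfl7, Emcn and Eng) and all 6 markers of glomerular endothelium were called above 100. The glomerular markers were Ehd3, Sema5a, Nostrin, Gata5, Scn7a and Adamts5. The paper names these genes as raised in glomerular endothelium, in a screen of its own arrays that left out low signals. The arrays used here are among the data that the paper lists. The calls of the glomerular markers are thus not an independent check of cell identity. All 12 markers of smooth muscle, mesangium and pericytes were called below 100, beside 72.5% of all probe sets. So were all 6 measured podocyte, all 8 distal nephron and all 8 leukocyte markers. Against the background, 3 of the 6 podocyte markers (50%) were called above, beside 44.4% of all probe sets. In each of the distal nephron, leukocyte and proximal tubule lists 2 of 8 markers (25%) were called above it. Among 8 proximal tubule markers Aqp1 (8.25 ± 0.52, SD, n = 3) was called above 100, and the water channel it encodes is also made by some endothelia. In the vascular lists all 6 glomerular and 6 of the 8 endothelial markers were lowest on replicate 3. No share of all probe sets lowest on that array is given beside these counts.

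Of the 9 connexin and pannexin genes, 2 were called above 100 (Gja4 and Gjc1), beside 15.8% of all probe sets. Another 5 were called below 100 (Gja3, Gjb1, Gjb2, Panx1 and Panx2), beside 72.5% of all. Gja1 and Gja5 were called neither. Against the olfactory receptor background 7 were called above, beside 44.4% of all probe sets, and Gjb1 and Gjb2 were called below, beside 36.2%. The 9 genes were chosen with earlier results of these data known, so the shares beside them are descriptive only. The 2 genes called above 100 were also those with at least 100 on every array, which 18.8% of all probe sets reached. The median of the 9 mean levels was 5.90, beside a median of 5.04 over all probe sets that name 1 gene and 3.33 over the olfactory receptor probe sets.

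**Figure D1:**
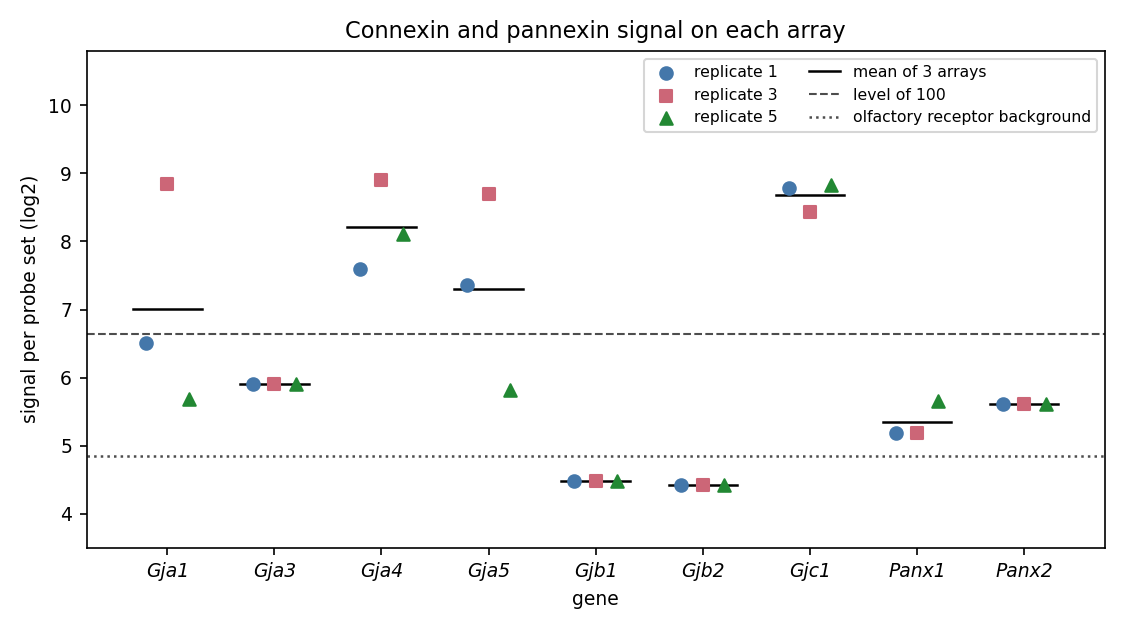
Signal of each gene on the log2 scale (vertical axis) on replicates 1 (circles), 3 (squares) and 5 (triangles), with the mean of the 3 arrays as a bar, the level of 100 as a dashed line and the olfactory receptor background as a dotted line. Gja1, Gja4 and Gja5 are highest on replicate 3, Gjc1 is lowest there, and Gja3, Gjb1, Gjb2 and Panx2 have 1 value on all arrays.

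Gja4, which encodes connexin 37 of arterial and arteriolar endothelium, was above 100 on every array. Its signal was 7.60 on replicate 1, 8.90 on replicate 3 and 8.11 on replicate 5 (194, 478 and 277 linear). Replicate 3 was the highest, 2.46-fold over replicate 1 and 1.72-fold over replicate 5. The mean was 8.21 ± 0.65 (SD, n = 3; 95% interval 7.40 to 9.01), which lay 1.56 over the level of 100 (adjusted p = 0.00714) and 3.35 over the background (adjusted p = 0.000862). The call above 100 was made under all 9 alternatives run for it, with adjusted p-values of 0.00417 to 0.03.

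Gjc1 encodes connexin 45, best known from the conduction system of the heart and from vascular smooth muscle. Its signal was 8.79, 8.43 and 8.83 on replicates 1, 3 and 5 (441, 344 and 455 linear). The arrays lay within 1.32-fold of each other, and replicate 3 was the lowest, where Gja1, Gja4 and Gja5 were highest. The mean of 8.68 ± 0.22 (SD, n = 3; 95% interval 8.27 to 9.09) was 2.04 over the level of 100 (adjusted p = 0.000291), and this call too was made under all 9 alternatives, with adjusted p-values of 0.000122 to 0.00185. Of the smooth muscle markers, Acta2 (5.21), Myh11 (4.82) and Cnn1 (4.17) each had 1 value on all arrays, and Tagln had 4.84, 4.60 and 4.87. In the same list Itga8 had 6.08, 4.94 and 4.75, and Pdgfrb had 4.51, 4.13 and 4.03, on replicates 1, 3 and 5. These 2 genes were highest on replicate 1, 1 gene was highest on replicate 5, and 9 had no single highest array. The summed linear level of the 12 markers of smooth muscle, mesangium and pericytes was 381, 333 and 335 on replicates 1, 3 and 5, and their part in the Gjc1 signal was not tested. Of this list 2 genes, Mylk (5.83) and Notch3 (5.40), were called above the background, and 4 were called below it.

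Gja5, the gene for connexin 40, spanned both sides of the level of 100. Its signal was 7.37 on replicate 1, 8.70 on replicate 3 and 5.82 on replicate 5 (165, 417 and 56.5 linear). Replicate 3 was 2.53-fold over replicate 1 and 7.38-fold over replicate 5. The mean of 7.30 ± 1.44 (SD, n = 3; 95% interval 5.64 to 8.95) was not distinguishable from the level of 100 (difference 0.65, adjusted p = 0.353) and was called above the background (difference 2.44, adjusted p = 0.0201). Without replicate 5 it was called above 100 (adjusted p = 0.0435), against adjusted p-values up to 0.913 under the other alternatives. The call above the background was lost under 3 of 10 alternatives, which were without replicate 1 (adjusted p = 0.0724), with limma's default prior (0.062) and with the background at the 99th percentile (0.0509), within a range of 0.00701 to 0.0724.

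Gja1 encodes connexin 43, the most widely used connexin of the body, and it had the widest range of the 9 genes. Its signal was 6.51 on replicate 1, 8.84 on replicate 3 and 5.69 on replicate 5 (91.4, 458 and 51.5 linear). It was under 100 on replicates 1 and 5 and 5.01-fold and 8.88-fold higher on replicate 3 than on replicates 1 and 5. The mean of 7.01 ± 1.63 (SD, n = 3; 95% interval 5.15 to 8.88) was called above the background (difference 2.16, adjusted p = 0.0412) and not distinguished from 100 (difference 0.37, adjusted p = 0.627). The first call was lost under 6 of 10 alternatives. Over all 10 the adjusted p-values ran between 0.013 and 0.108, and without replicate 1 the value was 0.0872.

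Of the 9 genes, 3 (Gja1, Gja4 and Gja5) had a range over 2-fold between arrays, beside 5.73% of all probe sets and 8.81% of the 9680 called above the background. Wider ranges were seen in 0.266% of probe sets for Gja1, 0.454% for Gja5 and 3.59% for Gja4. Gja1 and Gja5 were over 2-fold higher on replicate 3 than on both other arrays, which held for 217 probe sets (0.996%), while the same was true of replicate 1 for 0.629% and of replicate 5 for 0.67%. With 1 kidney per array no test between arrays was possible. The summed linear signal of the 9 genes was 1081 on replicate 1, 1886 on replicate 3 and 1043 on replicate 5.

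Gja1, Gja4 and Gja5 had the widest ranges between arrays of the 9 genes, and the sequence around their start sites is shown. It runs from 250 bases before to 50 bases after the start, in RefSeq promoter windows of the mouse build GRCm38.p6. Its part in the differences between arrays was not tested. Of the 9 genes 7 matched a window by symbol, with 11 windows in all, and Gjc1 and Panx2 did not. Gja1 lies at chr10:56377050-56377349 on the plus strand, Gja4 at chr4:127313990-127314289 on the minus strand and Gja5 at chr3:97032152-97032451 on the plus strand. Each is printed 5′ to 3′ on its own strand, in lower case, with capitals for the letters matched by 1 of 8 motifs searched on both strands.
Gja1: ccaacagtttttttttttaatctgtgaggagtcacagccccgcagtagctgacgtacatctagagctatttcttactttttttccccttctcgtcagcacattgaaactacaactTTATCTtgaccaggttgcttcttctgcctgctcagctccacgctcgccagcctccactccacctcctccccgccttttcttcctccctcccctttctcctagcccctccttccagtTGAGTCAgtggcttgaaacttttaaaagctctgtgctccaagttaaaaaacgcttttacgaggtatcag
Gja4: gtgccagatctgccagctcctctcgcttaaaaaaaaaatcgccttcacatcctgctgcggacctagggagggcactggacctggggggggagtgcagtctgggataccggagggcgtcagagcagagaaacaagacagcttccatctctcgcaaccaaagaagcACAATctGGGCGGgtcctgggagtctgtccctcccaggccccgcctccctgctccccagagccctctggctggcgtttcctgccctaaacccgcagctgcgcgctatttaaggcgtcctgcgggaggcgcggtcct
Gja5: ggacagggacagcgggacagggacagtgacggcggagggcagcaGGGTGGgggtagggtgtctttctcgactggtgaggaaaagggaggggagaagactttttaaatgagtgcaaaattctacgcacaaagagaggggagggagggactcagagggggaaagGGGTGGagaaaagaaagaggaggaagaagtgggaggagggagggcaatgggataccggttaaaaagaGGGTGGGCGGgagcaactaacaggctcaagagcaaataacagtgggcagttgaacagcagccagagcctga
The motifs, each with its share of all 32851 windows of 300 bases, were TATAAA for the TATA box (13.6%), GGGCGG for the GC box (35.7%), CCACCC for KLF factors (31.5%), CCGGAA for ETS factors (14.9%), TGGGAA for RBPJ (25.6%), ACAAT for SOX factors (31%), AGATAA for GATA factors (11.2%) and TGANTCA for AP-1 (7.81%).

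No motif occurred in all 3 windows. The Gja5 window held the KLF letters 3 times on the reverse strand, with the printed matches starting 206, 88 and 21 bases before the start site, and a GC box 17 bases before it that overlaps the nearest of them. The Gja4 window held a GC box 79 bases and SOX letters 86 bases before the start. The Gja1 window held AP-1 letters 19 bases before the start and GATA letters on the reverse strand 135 bases before it. The GC content was 47.7% for Gja1, 62% for Gja4 and 55.7% for Gja5, beside a median of 52.7% over all windows. A match is a run of letters and not a measured binding site.

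The pattern of Gja1, Gja4 and Gja5 across arrays was set beside that of 18 markers of arterial and arteriolar endothelium. Of these, 12 were highest on replicate 3, 3 were lowest there, and 9 were over 2-fold higher there than on both other arrays, beside 0.996% of all probe sets. The list was drawn up knowing that arterial genes such as Mgp were high on replicate 3, so these counts are not an independent result. No share of all probe sets highest or lowest there is given. Mgp, an inhibitor of calcification of the arterial wall, had 5.37, 10.18 and 4.80 on replicates 1, 3 and 5. Vegfc, a growth factor of lymphatic vessels, had 4.61, 8.37 and 4.61, and Fbln5, a protein of elastic fibres, had 6.21, 8.77 and 5.14. Jag1, a Notch ligand of arteries and their smooth muscle, had 6.25, 8.98 and 5.96. These 4 genes were highest on replicate 3, as were Gja1, Gja4 and Gja5. Bmx, Sema3g, Ltbp4, Fbln2 and Gkn3 made up the other 5 that were over 2-fold higher on replicate 3 than on both other arrays. For Gja5 the gap between replicate 1 and replicate 5 (1.55) was wider than that between replicate 3 and replicate 1 (1.34), both on the log2 scale.

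Other arterial genes differed less or the other way. Sox17, a transcription factor of arterial endothelium, was also highest on replicate 3, by under 2-fold, with 8.26, 8.71 and 8.22. Efnb2, the ephrin that marks arterial endothelium, had 10.73, 10.82 and 11.35 and was highest on replicate 5, and Cxcr4, a chemokine receptor, had 8.34, 7.41 and 7.57 and was lowest on replicate 3. These were the 3 genes of the list called above 100 (8.40 ± 0.27 for Sox17, SD, n = 3). They made up 16.7% of the list, near the 15.8% of all probe sets called above 100. Hey1, a transcription factor downstream of Notch, was lowest on replicate 3, with 6.63, 5.22 and 7.06, and Hey2 had 4.33 on each array. The summed linear level of the arterial list was 3136, 5720 and 3859 on replicates 1, 3 and 5.

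The glomerular endothelial markers went the other way. Ehd3, an endocytic protein typical of glomerular endothelium, had 10.60, 9.51 and 11.00 on replicates 1, 3 and 5. Scn7a, a sodium channel, had 7.84, 7.23 and 7.59, and Nostrin, which binds endothelial nitric oxide synthase, had 9.67, 8.77 and 9.83. The sum of the 6 genes was 3824, 2278 and 4570, and that of the 8 endothelial markers 15179, 10206 and 17136. Their part in the levels of Gja1, Gja4 and Gja5 was not tested. In sorted bulk samples, fewer cells of a type and less RNA per cell cannot be told apart. Of the renin cell markers only Rgs5, which is shared with pericytes, was measured (4.24 on each array, below both levels), so renin cells, which also use connexin 40, could not be checked by renin itself.

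**Figure D2:**
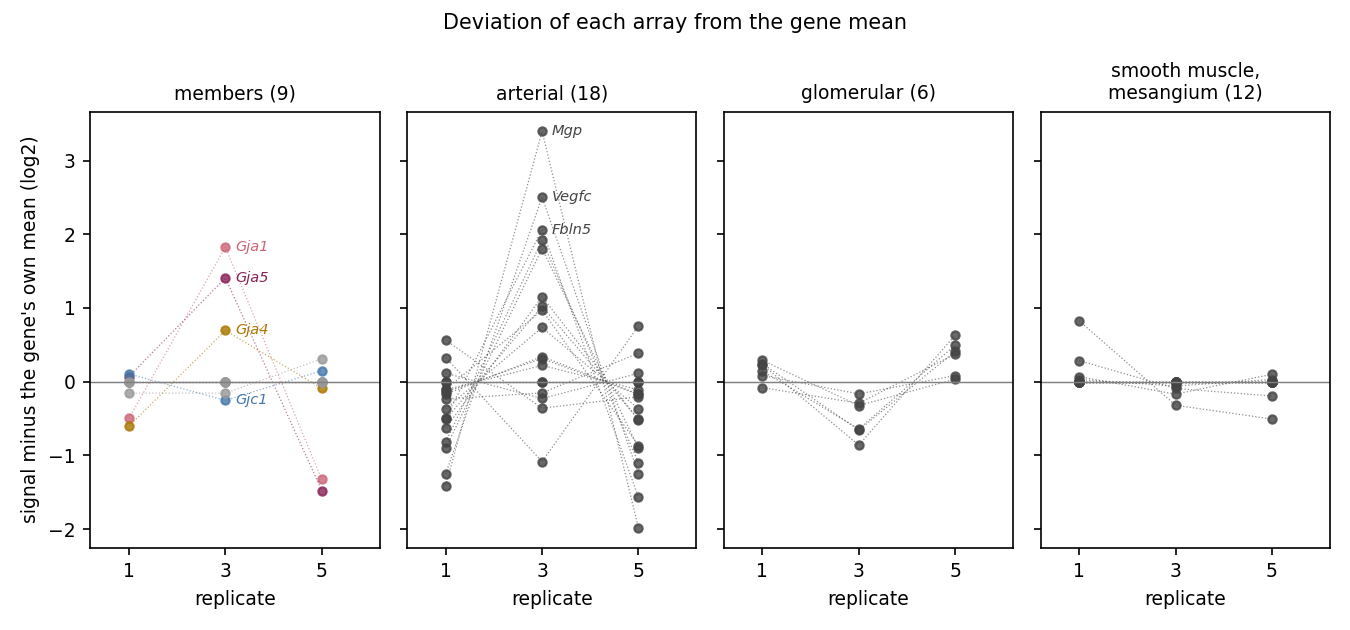
Signal on each array minus the gene's own mean over the 3 arrays (log2, vertical axis) by replicate (horizontal axis), for the 9 connexin and pannexin genes and the markers of arterial endothelium (18), of glomerular endothelium (6) and of smooth muscle, mesangium and pericytes (12). Each point is a gene on an array and the dotted lines join one gene's points, with no order implied; 12 arterial genes are highest and all 6 glomerular genes lowest on replicate 3.

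The genes whose pattern lay nearest to each of the 3 variable connexins were found by the Euclidean distance between values centred on their own mean, over 3 arrays only. Nearest to Gja1 were Cd93 (distance 0.248), a receptor of endothelial and myeloid cells, Ptprj (0.279), a receptor phosphatase, and Lgr5 (0.285), an R-spondin receptor. Cd93 had 8.20, 10.17 and 7.21 on replicates 1, 3 and 5, with the same order of arrays as Gja1. Nearest to Gja5 were Efhd1 (0.126), a mitochondrial calcium-binding protein, Slc10a7 (0.158) and the adhesion receptor Adgrl2 (0.217). Efhd1 too was highest on replicate 3 and lowest on replicate 5. Each of these 2 connexins had 11 probe sets within a distance of 0.5, while Gja4, with a smaller range, had 455, the nearest being Saal1 (0.0111), the small nucleolar RNA gene Snord15b (0.0337) and the stress-response gene Ddit4 (0.0438). Gja1 and Gja5 were 0.72 apart, and Gja4 lay 1.68 from Gja1 and 1.70 from Gja5.

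The remaining α-connexin, Gja3, encodes connexin 46 of the lens. It had 5.90 on every array, 0.74 below the level of 100 (adjusted p = 0.0042) and 1.05 over the background (adjusted p = 0.00179), with 99.4% of olfactory receptor probe sets lower. Both β-connexins were called below the background. Gjb1, for connexin 32 of hepatocytes and Schwann cells, had 4.48 on every array, 0.37 below the background (adjusted p = 0.0424). Gjb2, for connexin 26 of the cochlea and epithelia, had 4.42 on every array, 0.43 below it (adjusted p = 0.0276). Of the olfactory receptor probe sets 89.8% were lower than Gjb1 and 88.3% lower than Gjb2, so both lay within the range of that set. The call of Gjb1 was lost under 4 of 10 alternatives and that of Gjb2 under 2. For Gjb1 these included all probe sets tested (adjusted p = 0.0719), without replicate 1 (0.0704) and without replicate 5 (0.0634). For Gjb2 they included without replicate 1 (0.050001). With a background at the 90th percentile neither gene was called (adjusted p = 0.982 for Gjb1 and 0.644 for Gjb2, the highest of 10 alternatives each). Gja3 and Gjb2 are neighbours on the chromosome in RefSeq, next to Gjb6, which had 4.27 on each array and was called below the background (adjusted p = 0.0108).

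**Figure D3:**
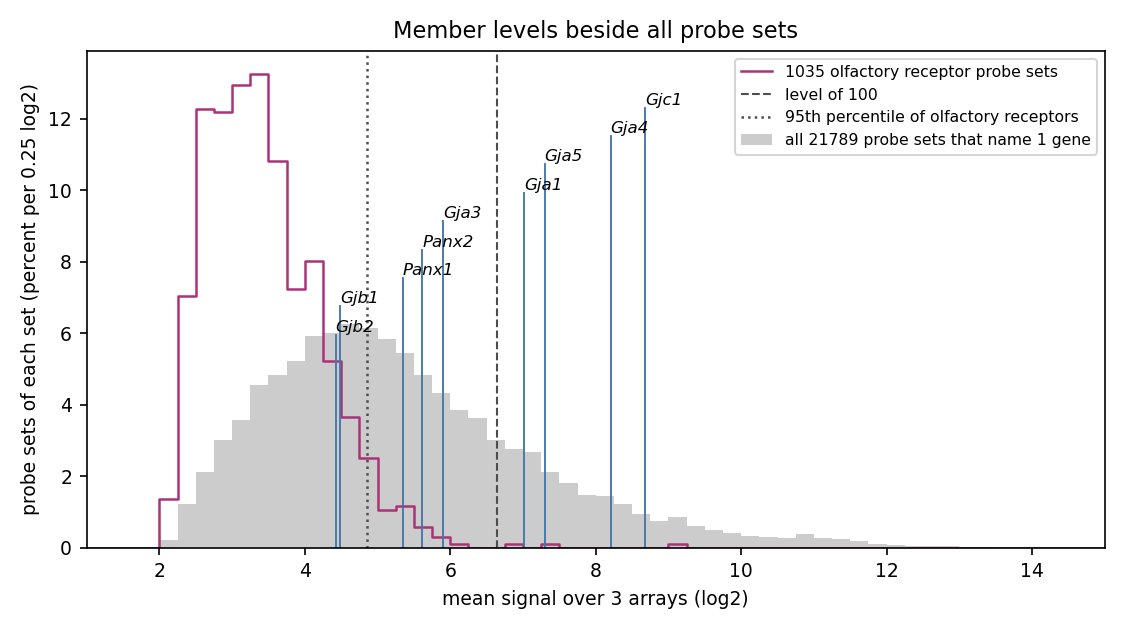
Distribution of the mean signal over 3 arrays (log2, horizontal axis) as the percent of probe sets per 0.25 of log2 (vertical axis), for all 21789 probe sets that name 1 gene (grey) and 1035 olfactory receptor probe sets (line), with the 9 genes at vertical lines whose heights only separate the labels. Gjb1 and Gjb2 lie left of the dotted background line, and Gja1, Gja5, Gja4 and Gjc1 lie right of the dashed level of 100.

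Both pannexins were below 100 and close to the background. Panx1 had 5.19, 5.19 and 5.66 on replicates 1, 3 and 5 and was highest on replicate 5. Its mean of 5.35 ± 0.27 (SD, n = 3) was 1.30 below 100 (adjusted p = 0.00175) and 0.49 over the background (adjusted p = 0.0459). This last call was lost under 5 of 10 alternatives (adjusted p up to 0.313), among them without replicate 1 (0.0619) and without replicate 5 (0.0859). Panx2, whose protein is best known from brain, had 5.62 on every array, 1.03 below 100 (adjusted p = 0.00134) and 0.76 over the background (adjusted p = 0.00483). With the background at the 99th percentile it was 0.074 over it and not called (adjusted p = 0.585), the only loss among 10 alternatives. With 98.4% and 99.2% of olfactory receptor probe sets lower than Panx1 and Panx2, both signals were dim but not within the bulk of that set.

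Of 14 other connexin and pannexin genes 10 were measured. None was called above 100, beside 15.8% of all probe sets, while 9 (90%) were called below it, beside 72.5%. The exception was Gjd3, for connexin 30.2, with 6.81 on each array, which was not distinguished from 100 (adjusted p = 0.235) and was called above the background by 1.96 (adjusted p = 0.00038). Gjb5 (4.95) was called on neither side of the background (adjusted p = 0.485). The other 8, from Gja10 at 3.21 to Gjd4 at 4.31, were called below it (80%, beside 36.2% of all probe sets). Gjd3 was the 1 gene called above the background (10%, beside 44.4% of all). Of the 10 genes 8 had 1 value on all arrays, as did 4 of the 9 genes described above.

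Another list held genes whose proteins bind, anchor or turn over gap junction channels. Of 15 listed 14 were measured, with 8 called above 100 (57.1%, beside 15.8% of all probe sets) and 6 below, and with 12 above the background (85.7%, beside 44.4% of all) and 2 below it. Tjp1, the scaffold ZO-1 that binds the tail of connexin 43, had 10.71, 10.24 and 10.57 on replicates 1, 3 and 5 (10.51 ± 0.24, SD, n = 3). Cav1, the coat protein of caveolae, averaged 8.77 and the adherens junction genes Ctnnb1 and Cdh5 averaged 8.86 and 10.75. Tjp1 and Cdh5 were lowest on replicate 3, as were 4 of the 14 in all, while 2 were highest there. No such share of all probe sets is given here or for the lists below.

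A list of 13 genes, all measured, held transcription factors and receptors linked to flow and Notch signalling, and also Tbx2, Tbx3 and Nkx2-5. Their part in the connexin levels was not tested. Of the 13 genes 5 were called above 100 (38.5%, beside 15.8% of all probe sets) and 4 below. Against the background 11 were called above (84.6%, beside 44.4% of all). Klf2 and Klf4, which respond to laminar flow, had 7.78 and 7.41 on every array. Notch1 (6.80) and Notch4 (6.58) were not distinguished from 100 (adjusted p = 0.266 and 0.649) and were called above the background. Sox17 and Sox18 (7.92) and the T-box gene Tbx3 (8.98 ± 0.40, SD, n = 3), all transcription factor genes, made up the other calls above 100. Tbx3 was lowest on replicate 3, with 9.14, 8.53 and 9.28 on replicates 1, 3 and 5. In this list 2 genes were lowest on replicate 3 and 1 was highest there.

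Receptors and enzymes that meet ATP released from cells form the purinergic list. Of its 22 genes 18 were measured, with 2 called above 100, 14 below and 2 neither (77.8% below, beside 72.5% of all probe sets). Against the background 6 were called above (33.3%, beside 44.4% of all) and 9 below (50%, beside 36.2%). P2ry1, a receptor for ADP, had 7.89, 7.15 and 7.89 on replicates 1, 3 and 5, and Entpd1, the ectonucleotidase CD39, had 9.06, 8.30 and 8.87. Both were lowest on replicate 3, as were 4 of the 18 in all, while 3 were highest there. Both P2ry1 and Entpd1 were called above 100 (adjusted p = 0.0107 and 0.000708). Among the channels P2rx1 (4.17), P2rx2 (4.33), P2rx3 (4.36) and P2rx6 (4.33) were called below the background, and P2rx5 (4.65) on neither side. P2rx4, the ATP-gated channel of endothelium that senses flow, had 6.26, 5.82 and 6.86 and was called above it (adjusted p = 0.00595). P2rx7 had 6.94, 6.96 and 6.94 and was also called above it (adjusted p = 0.00035).

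Ion channels and calcium-release channels of conducted vasodilation were measured for 12 of 13 genes listed. Of the 12, 1 was called above 100 (8.33%, beside 15.8% of all probe sets), 9 below and 2 neither. The 75% below 100 lay near the 72.5% of all probe sets. Kcnn3 had 4.85, 5.08 and 4.75 and Kcnn4 4.78, 5.33 and 4.78 on replicates 1, 3 and 5. Both encode calcium-activated potassium channels of endothelium, and neither was distinguished from the background (adjusted p = 0.793 and 0.578), nor was Kcnn1 (4.73, adjusted p = 0.391). Kcnn2 (3.79) was called below it. Trpv4, called on neither side of either level, had 5.36, 6.55 and 4.76. It was over 2-fold higher on replicate 3 than on both other arrays. Of the 12 genes 5 were highest on replicate 3, 1 was highest on replicate 1, and 6 had no single highest array. The gene called above 100 was Piezo1, a mechanically gated channel, 0.36 over that level with 1 value on all arrays (adjusted p = 0.0432), from the brightest of its 3 probe sets, which disagreed.

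**Figure D4:**
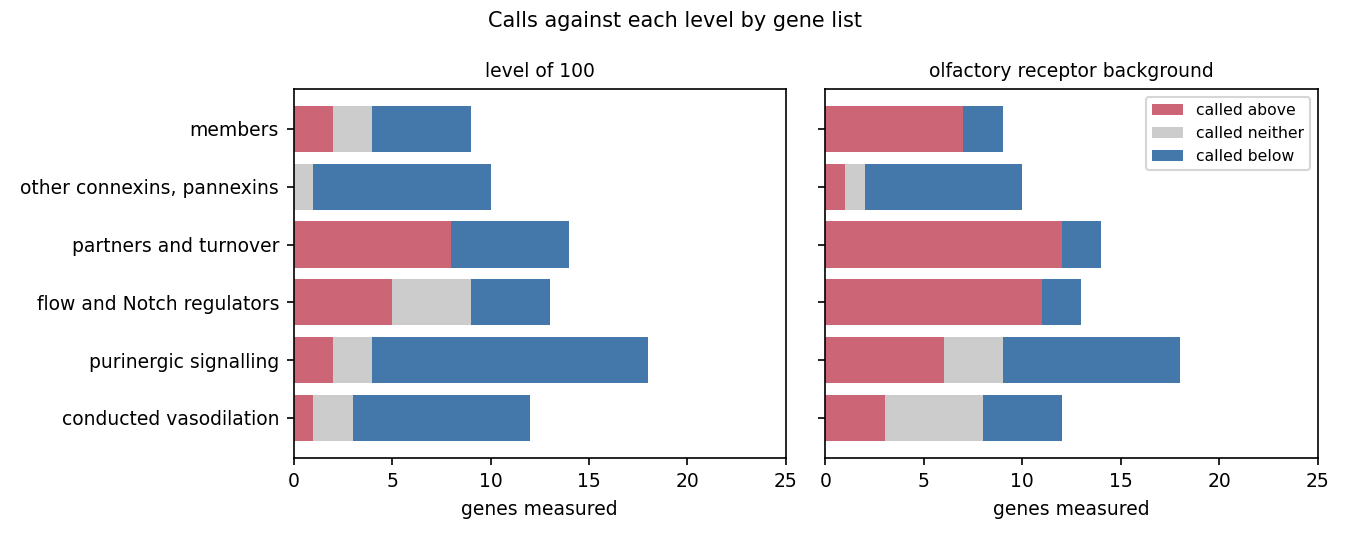
Number of genes measured (horizontal axis) in each gene list (rows, with the 9 genes described here as members) called above (red), called on neither side (grey) or called below (blue) the level of 100 (left panel) and the olfactory receptor background (right panel). Of the 9 members 2 were above 100 and 7 above the background, and of the other connexins and pannexins none and 1. Of all probe sets 15.8% were called above 100 and 44.4% above the background. The members and lists were chosen with earlier results of these data known, so the contrast is a description and not a test.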

How the data were processed

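Sorted glomerular endothelial RNA was amplified and hybridised to 3 arrays. The authors deposited 1 log2 signal for each probe set and array. Affymetrix Expression Console is named in the submitters' processing notes, its version being not given in the sources used here, while GeneSpring and RMA appear in the text of the paper. No source used here says which arrays were normalized together or on which scale, so 100 here need not equal 100 on the raw scale of the study's filter.

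Gene names came from the annotation of the platform, in which 21789 of 35557 name 1 gene, 1621 name several and 12147 are unnamed. Symbols were checked against RefSeq (21698 matched, 0 changed). For genes with several probe sets, the one with the highest mean was used. The model was an intercept alone (limma 3.58.1, R 4.3.3). Its variance prior (SD 0.288, 2.03 degrees of freedom) came from the 4406 probe sets with 3 distinct values, because ties pull the default prior to an SD of 0.00634. Precision is limited by the number of arrays.

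The members, lists, levels and prior were chosen with earlier results of these data known, including that arterial genes such as Mgp were high on replicate 3. Named were all 9 members, other family genes above either level, the first 4 genes of other lists, genes of non-endothelial lists above 100, and the 3 genes nearest to each variable member. Other list genes in the text were chosen after their values were seen. Alternatives were other priors, all or only brighter probe sets, median or quantile scaling, other background percentiles and leaving out each array.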

Additional observations from a re-analysis of the deposited data

How the results depend on the processing

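Gja4 and Gjc1 were called above 100 in every alternative run. The number of members above the background was 7, against 4 with limma's default prior, 3 with the background at the 99th percentile, and 4 to 7 when 1 array was left out. The number below it was 2, against 1 with all probe sets tested, 0 at the 90th percentile and 0 to 2 without 1 array. The number below 100 was 5, against 3 when only probe sets above background were tested, since the other 2 are not tested there. The number with a range over 2-fold was 1 to 3 without 1 array, and 1 without replicate 3. The number above 100 was 2, and 3 without replicate 5, as was the number with at least 100 on every array. Panx1 lay 0.49 above the background, and at the 99th percentile its difference was -0.20 (adjusted p = 0.313).

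Leaving out 1 array turned the sign of some differences that were not called. Against 100 these were Gja1 (-0.54 to 1.03), Gja5 (-0.051 to 1.39), Mgp (-1.56 to 1.13), Fbln5 (-0.97 to 0.85), Jag1 (-0.54 to 0.97), Hey1 (-0.72 to 0.21) and Ltbp4 (-0.82 to 0.068). Against the background they were Vegfc (-0.25 to 1.64), Kcnn3 (-0.058 to 0.10), Kcnn4 (-0.077 to 0.20) and Ptprc (-0.17 to 0.0068). Each member has a single probe set, so the choice of probe set gave no alternative value. The causes were not tested. With 1 kidney on each of 3 arrays, a difference between arrays has no replicate.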
